A study of Mus musculus with 45 samples.

Results

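With lipopolysaccharide (LPS) for 68 h, follicular B cells on stroma that carries the Notch ligand Delta-like 1 differed from cells on the parental stroma in few genes. Igj, the joining chain of secreted IgM and IgA, was 18.6-fold lower by the ratio of group means, and Tnip3, an inhibitor of NF-kB signalling that binds A20, was 4.99-fold lower. Papln, which encodes the extracellular matrix protein papilin, was 9.33-fold higher, and Cox6a2, the muscle-type isoform of a cytochrome c oxidase subunit, was 5.75-fold higher. The comparison holds 6 of the 45 RNA-seq libraries of the series, chosen by their labels as LPS at 68 h, with 3 libraries on OP9-DL1 stroma and 3 on OP9 stroma, and it covers every gene tested.

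The series measured polyadenylated RNA of splenic follicular B cells grown on either stroma, with LPS, with anti-IgM F(ab')2 or with no stimulus, for 20, 44 or 68 h. The OP9-DL1 libraries came from cells that carried the genotype B6.Blimp1GFP/+, were grown on a confluent OP9-DL1 layer with LPS of Salmonella enterica at 10 µg per mL for 68 h, and were sorted for viability. The OP9 libraries came from cells of the same genotype, stimulus, dose and time on OP9 without the ligand. All 45 libraries share the Blimp1-GFP allele and SMART-seq and Nextera XT library chemistry, though the labels do not say which SMART-seq kit each library used. The group labelled Blimp1+ names a marker that the other labels do not, so the labels do not give a common sort for all 45. The labels name neither an animal nor a culture for a replicate, so p-values measure the spread between these libraries, which may be technical. OP9 is a mouse bone marrow stromal line, and OP9-DL1 is its derivative made to display Delta-like 1.

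Notch receptors are cleaved when a ligand on a neighbouring cell engages them, and the freed intracellular part joins the DNA-binding protein RBPJ to switch on genes such as Hes1, Hes5, Dtx1 and Nrarp. In the spleen, Notch2 is the receptor that directs B cells to the marginal zone fate. LPS acts through Tlr4 and its partners, drives NF-kB and proliferation, and leads a share of B cells to become antibody-secreting cells, which make Igj, Xbp1 and Prdm1 (Blimp1) in quantity.

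The 6 libraries held between 5.54 and 8.62 estimated megareads (1e6 reads), within a range of 3.07 to 29.1 over the series. Replicate 3 stood apart on both stromata. Actb was at 985, 1240 and 85337 TPM (transcripts per 1e6 transcripts) in OP9-DL1 replicates 1, 2 and 3, and at 1490, 1219 and 41871 TPM in the OP9 replicates. In replicate 3, 10.4% of the 15614 genes tested lay over 1 log2 unit above the mean of replicates 1 and 2 on both stromata, and 9.88% lay as far below. The calls of this comparison are therefore also given from replicates 1 and 2, and with the 10 libraries of the series over 5000 TPM of Actb left out. The B cell marker Cd79a was at 857 to 1332 scaled TPM on OP9-DL1 and at 1491 to 1668 on OP9, so the cells carried the RNA of the labelled type.

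Messenger RNA of the ligand itself was low in the sorted cells. Dll1 was at 3.18, 11.1 and 0.711 TPM in the OP9-DL1 libraries and at 0.853, 0.518 and 0 TPM in the OP9 libraries. In these unscaled values the lowest OP9-DL1 library, replicate 3, lay below the highest OP9 library. After division by the size factor of each library (scaled TPM), Dll1 was at 2.60, 9.56 and 1.06 on OP9-DL1. The OP9 libraries were then at 0.769, 0.4555 and 0, so the groups did not overlap. The log2 fold change of Dll1 was 1.64 ± 0.70, and the gene was not called. The 30 stroma markers summed to 105 to 159 TPM on OP9-DL1 and to 103 to 345 TPM on OP9, with overlapping ranges, and the part of stroma RNA in the results was not tested.

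The effect of the ligand was estimated with limma on log2(scaled TPM + 1), where TPM was divided by a size factor for each library. A fold change on this scale understates the change of genes with low values. At a Benjamini-Hochberg adjusted p under 0.05, 10 of the 15614 genes were called, which is 0.064% of those tested. Of these, 3 rose (0.0192%) and 7 fell (0.0448%) on OP9-DL1, and 513 genes had an unadjusted p under 0.05. The median log2 fold change of all genes was 0.05. With only replicates 1 and 2 of both groups, 3 genes were called, Igj, Tnip3 and Papln, and all 3 are among the 10. When limma was fitted to the 6 libraries alone, in place of pooling the spread over the 15 groups, no gene was called and 466 genes had an unadjusted p under 0.05.

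**Figure D1:**
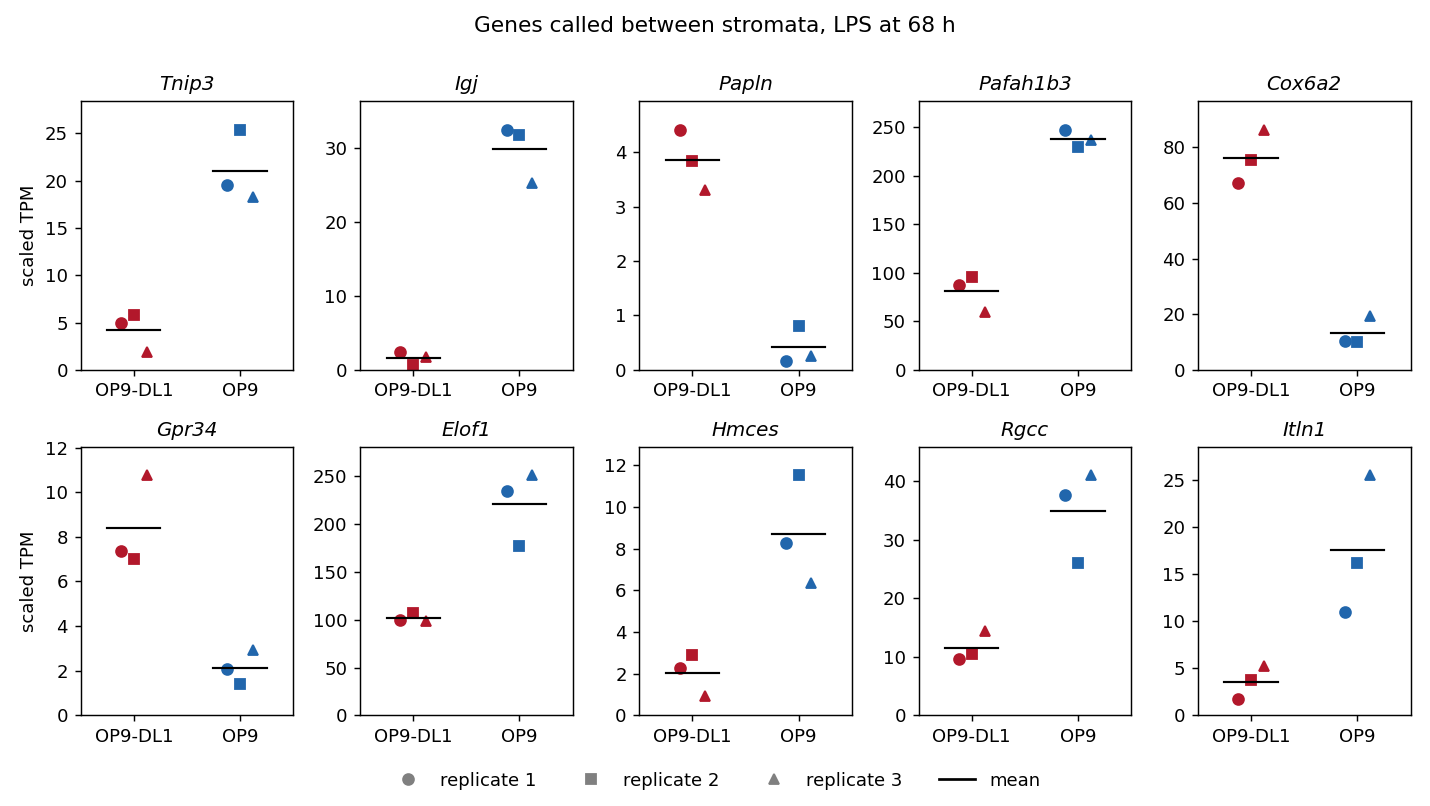
Scaled TPM (vertical axes, each starting at 0) of the 10 genes called between OP9-DL1 and OP9 with LPS at 68 h. Points are libraries, with 1 marker shape per replicate, and bars are group means of 3 libraries; in each gene the groups do not overlap.

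Promoters of Igj and Tnip3, genes that were called, and of Ifit3, which was not called, are shown first. These 3 promoters were chosen because the stroma supplies a Notch signal, LPS an NF-kB signal, and the interferon genes formed the most one-sided list. They are the 250 bases before the RefSeq transcription start (GRCm38.p6), read 5′ to 3′. Igj (current symbol Jchain) lies on the minus strand at chr5:88527898-88528147, Tnip3 on the plus strand at chr6:65590148-65590397, and Ifit3, an interferon-induced gene, on the plus strand at chr19:34583279-34583528. Capitals mark matches on either strand to the RBPJ core TGGGAA, the kappaB pattern GGGNNNNNCC or the interferon-stimulated element GAAANNGAAA.
Igj: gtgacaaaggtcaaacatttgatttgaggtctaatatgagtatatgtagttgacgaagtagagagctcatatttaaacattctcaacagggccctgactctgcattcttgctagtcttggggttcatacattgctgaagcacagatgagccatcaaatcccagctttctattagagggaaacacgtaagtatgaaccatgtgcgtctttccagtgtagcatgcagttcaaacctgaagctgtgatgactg
Tnip3: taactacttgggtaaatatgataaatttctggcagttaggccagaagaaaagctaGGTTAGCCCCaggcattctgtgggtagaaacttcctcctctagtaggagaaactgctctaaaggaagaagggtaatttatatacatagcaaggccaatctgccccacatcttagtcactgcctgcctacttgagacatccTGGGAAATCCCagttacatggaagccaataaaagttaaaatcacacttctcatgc
Ifit3: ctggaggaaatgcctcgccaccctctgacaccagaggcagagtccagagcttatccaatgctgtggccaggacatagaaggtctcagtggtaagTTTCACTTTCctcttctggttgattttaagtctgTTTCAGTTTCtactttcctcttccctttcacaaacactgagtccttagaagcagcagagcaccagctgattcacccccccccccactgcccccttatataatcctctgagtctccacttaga
The Igj window held none of these letters, which says nothing of the factors. The Tnip3 window held 2 kappaB matches, and the one nearer the start overlapped an RBPJ core. The Ifit3 window held 2 interferon elements. Windows were also read for Xaf1, which held no interferon element, and for Trim30a, which held 1. The window of Gpr183, a gene of the Notch target list that was not called, held 1 RBPJ core. Over all 27025 RefSeq promoters, the same 250 bases held an RBPJ core in 21.5%, a kappaB match in 45.4% and an interferon element in 3.04%. A promoter was found for 7 of the 10 genes called, of which 2 held an RBPJ core and 3 a kappaB match. A promoter was found for 29 of the 40 listed interferon response genes, and 17 of these held an interferon element.

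Among the genes called, the change was largest in Igj, a gene of antibody-secreting cells. Igj was at 2.44, 0.603 and 1.78 scaled TPM on OP9-DL1, against 32.5, 31.9 and 25.3 on OP9. Every OP9 library was over 10 times the highest OP9-DL1 library, and replicate 3 did not stand apart for this gene. Igj fell by 3.63 ± 0.50 on the log2 scale (SE, n = 3 each), with a limma adjusted p of 0.000162. These values rest on 26.0, 5.55 and 7.79 estimated reads on OP9-DL1, against 302, 216 and 146 on OP9. In bulk libraries, fewer cells of a type and less RNA per cell cannot be told apart.

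The OP9-DL1 level with LPS at 68 h was the lowest Igj mean of the 15 groups of the series. The highest was in cells labelled Blimp1+ from OP9-DL1 cultures with LPS, at 2222 scaled TPM, for which the labels give no time. Igj is a gene of the minus strand of chr5:88519809-88527891 (GENCODE M21, GRCm38), and no other annotated gene overlaps it.

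Other plasma cell genes did not pass the test. Of the 33 measured members of that list, 1 fell (Igj) and none rose, and the list's median log2 fold change was -0.16, beside 0.05 over all genes. Prdm1, the gene of Blimp1, was at 3.49, 5.79 and 5.29 scaled TPM on OP9-DL1, against 5.63, 5.48 and 5.25 on OP9. Xbp1, which drives secretory capacity, was at 150, 134 and 30.9 on OP9-DL1, against 170, 185 and 79.9 on OP9. In both genes the groups overlapped, and the low Xbp1 values were those of replicate 3. Eaf2, an elongation factor partner expressed in plasma cells, was at 21.0, 25.6 and 19.8 on OP9-DL1, against 49.4, 46.6 and 55.0 on OP9. Its groups did not overlap, and its limma adjusted p was 0.70 (log2 fold change -1.16 ± 0.37).

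Among the 11 measured members of the list of antibody constant regions and Igj, 5 had a positive and 6 a negative fold change. Ighg2b, the IgG2b heavy chain, was at 617, 607 and 329 scaled TPM on OP9-DL1, against 248.6, 203 and 170 on OP9 (log2 fold change 1.28 ± 0.39, limma adjusted p = 0.56). Ighd, the IgD heavy chain of naive cells, was at 222, 214 and 222 on OP9-DL1, against 91.97, 102 and 120 on OP9 (1.07 ± 0.46, limma adjusted p = 1). Iglc2, a lambda light chain, was at 1121, 1227 and 1121 on OP9-DL1, against 2290, 1960 and 2225 on OP9 (-0.90 ± 0.44, limma adjusted p = 1). All 3 had groups that did not overlap, and none passed the test at 68 h. With LPS at 44 h, Ighg2b was called higher, with an effect of 2.26 (limma adjusted p = 0.0025). Ighd and Iglc2 were not called at 44 h. Lambda constant regions are near-identical copies, so the split of reads among them is uncertain.

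Tnip3 was the NF-kB feedback gene that fell. It was at 4.92, 5.83 and 1.92 scaled TPM on OP9-DL1, against 19.5, 25.4 and 18.3 on OP9. The highest OP9-DL1 library was below the lowest OP9 library by more than the spread within either group. It fell by 2.16 ± 0.29 on the log2 scale (limma adjusted p = 0.000162). The OP9 group with LPS at 68 h had the highest Tnip3 mean of all 15 groups. Tnip3 was also called lower on OP9-DL1 with LPS at 44 h, with an effect of -1.67 (limma adjusted p = 0.0027). The difference between the 68 h and 44 h effects was -0.49, which was not called. The gene spans chr6:65525313-65634040 on the plus strand in GENCODE M21, and the RefSeq start used for the promoter lies inside that span.

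**Figure D2:**
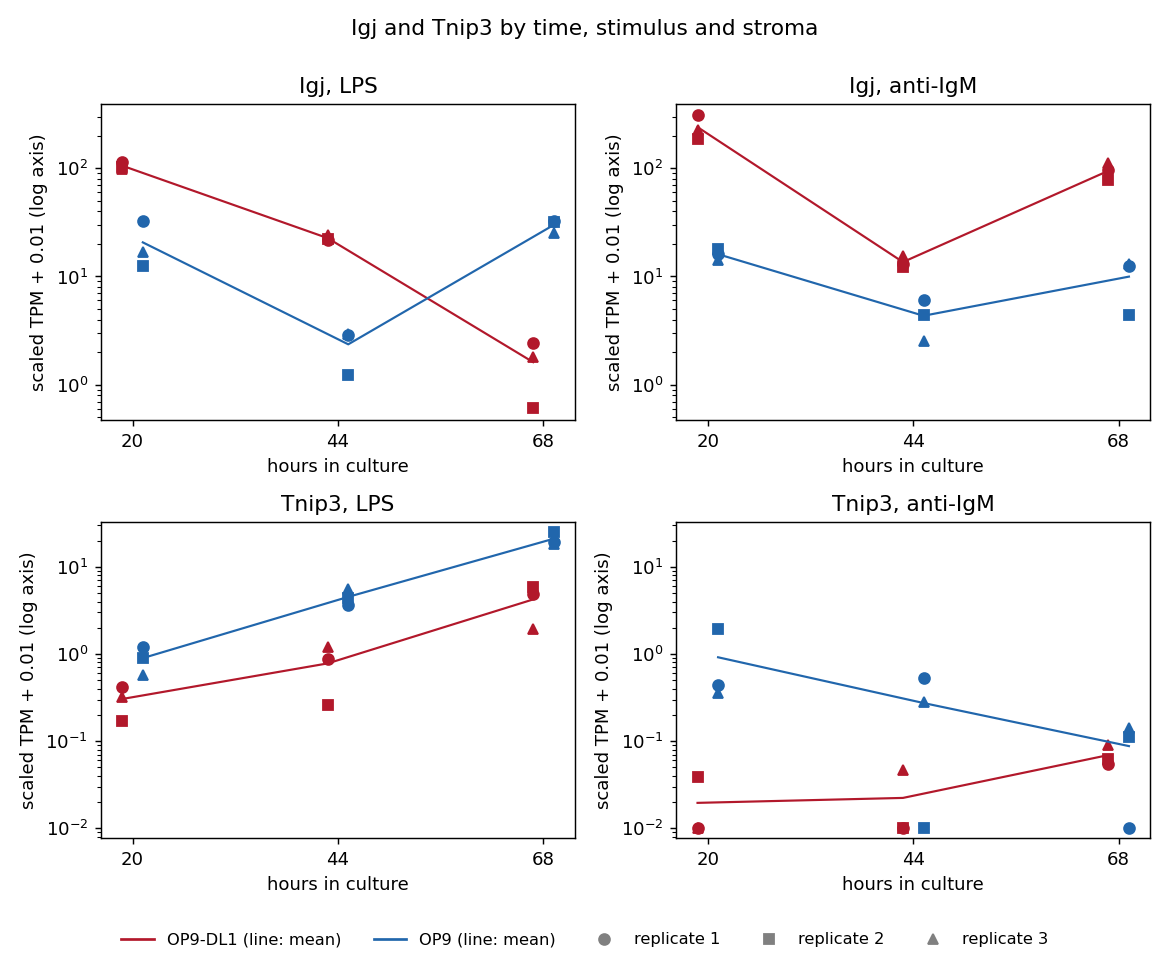
Igj (upper panels) and Tnip3 (lower panels) in scaled TPM plus 0.01 on a log axis, against hours in culture, with LPS (left) and anti-IgM (right). Points are libraries, lines join group means of 3 libraries, and points of the stromata are set slightly apart. Igj with LPS is higher on OP9-DL1 at 20 and 44 h and lower at 68 h. At 20 h, all 3 OP9-DL1 libraries with LPS and all 3 OP9 libraries with anti-IgM were over 5000 TPM of Actb.

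The remaining NF-kB regulators and targets did not pass the test. Of 20 subunit and feedback genes tested, Tnip3 fell and none rose, with a list median of 0.06. Of 26 NF-kB target genes, none was called, and 7 had every OP9-DL1 library above every OP9 library, where 4.62% of all genes did. The list median was 0.43, and 0.41 from replicates 1 and 2. Cd40, a costimulatory receptor, was at 162, 167 and 176 scaled TPM on OP9-DL1, against 96.1, 101 and 76.8 on OP9 (log2 fold change 0.88 ± 0.29, limma adjusted p = 0.79). Ccl5, a chemokine, was at 58.0, 79.5 and 53.2 on OP9-DL1, against 29.6, 40.9 and 21.1 on OP9 (1.06 ± 0.58, limma adjusted p = 1). Bcl2l1, a survival gene, went the other way, with 34.0, 31.3 and 17.2 on OP9-DL1, against 52.4, 43.1 and 82.2 on OP9 (-1.08 ± 0.61, limma adjusted p = 1).

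LPS receptor genes did not pass the test. Tlr4 was at 3.44, 2.78 and 1.37 scaled TPM on OP9-DL1, against 2.53, 2.05 and 1.11 on OP9. Cd180, a TLR4-related receptor of B cells, was at 18.7, 9.72 and 66.6 on OP9-DL1, against 5.05, 9.40 and 30.8 on OP9. In both genes the groups overlapped, and the highest Cd180 library of each stroma was replicate 3. None of the 21 LPS sensing genes was called, and their median was -0.05.

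Of the 3 genes that rose, Papln had the lowest adjusted p. It was at 4.42, 3.85 and 3.32 scaled TPM on OP9-DL1, against 0.169, 0.810 and 0.262 on OP9, a log2 increase of 1.80 ± 0.26 (limma adjusted p = 0.000321). Only the cells labelled Blimp1+ had a higher Papln mean among the 15 groups, at 9.73 scaled TPM. Cox6a2 was at 67.0, 75.6 and 86.3 on OP9-DL1, against 10.4, 9.96 and 19.5 on OP9, a log2 increase of 2.49 ± 0.45 (limma adjusted p = 0.00946). With replicates 1 and 2 the Cox6a2 increase was 2.69 and its call was lost. Cox6a2 overlaps Itgad on the opposite strand, and Itgad was at most 3.82 scaled TPM in these libraries.

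Gpr34, a receptor for lysophosphatidylserine, was at 7.36, 7.03 and 10.8 scaled TPM on OP9-DL1, against 2.06, 1.42 and 2.95 on OP9. It rose by 1.58 ± 0.31 on the log2 scale (limma adjusted p = 0.0237). The gene lies within Cask on the opposite strand, and Cask was at 0.531 to 3.92 scaled TPM. Gpr34 and Cox6a2 had their highest mean of all 15 groups in OP9-DL1 cells with LPS at 68 h. OP9 cells with LPS at 20 h came next for Cox6a2, at 65.7, 15.9 and 99.98 scaled TPM. With anti-IgM at 68 h, the Gpr34 mean was 6.62 on OP9-DL1 and 5.44 on OP9.

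The other genes that fell have different known functions. Pafah1b3, a catalytic subunit of platelet-activating factor acetylhydrolase, was at 87.7, 95.7 and 59.1 scaled TPM on OP9-DL1, against 247, 230 and 237 on OP9 (log2 fold change -1.58 ± 0.26, limma adjusted p = 0.0027). Elof1, a transcription elongation factor, was at 99.5, 107 and 98.9 on OP9-DL1, against 234, 177 and 251 on OP9 (-1.09 ± 0.21, limma adjusted p = 0.0237). Both were abundant, and in both the OP9 group mean was high for the series. By group mean, OP9 with LPS at 68 h ranked 1 of 15 groups for Pafah1b3 and 2 of 15 for Elof1.

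Hmces, which shields abasic sites in DNA, was at 2.25, 2.90 and 0.919 scaled TPM on OP9-DL1, against 8.26, 11.5 and 6.36 on OP9 (-1.71 ± 0.33, limma adjusted p = 0.0237). Rgcc, a regulator of cell cycle, was at 9.60, 10.5 and 14.3 on OP9-DL1, against 37.6, 25.9 and 41.0 on OP9 (-1.51 ± 0.31, limma adjusted p = 0.0448). Itln1, the lectin intelectin, was at 1.73, 3.71 and 5.21 on OP9-DL1, against 10.97, 16.2 and 25.5 on OP9 (-2.03 ± 0.42, limma adjusted p = 0.0448). The groups did not overlap in any of the 3 genes, and Hmces had its lowest mean of the 15 groups on OP9-DL1 with LPS at 68 h. Hmces overlaps the antisense gene Gm26636, which was not among the genes tested.

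A fit that pairs the stromata by replicate number within each stimulus and time kept 5 of the 10 calls. In that fit, Igj, Tnip3, Papln, Pafah1b3 and Cox6a2 had limma adjusted p-values of 0.0151, 0.0125, 0.0443, 0.0168 and 0.0151. Rgcc, Elof1, Hmces, Gpr34 and Itln1 had 0.0624, 0.11, 0.14, 0.171 and 0.29. With the 10 high-Actb libraries left out, Elof1 and Rgcc lost their calls at limma adjusted p-values of 0.19 and 0.147, and the other 8 kept theirs.

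That fit, which leaves replicates 1 and 2 of each stroma, called 23 genes (0.147% of those tested), 15 of them higher (0.0961%) and 8 lower (0.0512%). Of the 23, 15 were not called from all libraries. The one with the lowest adjusted p was Egr1, an immediate early transcription factor. Egr1 was at 44.4, 40.5 and 9.08 scaled TPM on OP9-DL1, against 4.78, 5.49 and 1.90 on OP9. Both stromata had their lowest value in replicate 3, and the groups did not overlap. Its log2 fold change was 2.83 ± 0.32 without the high-Actb libraries (limma adjusted p = 5.7e-05) and 2.48 ± 0.58 with them (limma adjusted p = 0.118).

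The other genes called without the high-Actb libraries include some that the naming rule did not cover, so they were chosen after their values were seen. Marcksl1, a regulator of the actin cytoskeleton, was at 180, 181 and 57.0 scaled TPM on OP9-DL1, against 65.8, 92.4 and 31.8 on OP9. Hs3st1, a heparan sulfate sulfotransferase, was at 14.3, 13.2 and 2.43 on OP9-DL1, against 1.85, 1.82 and 0.462 on OP9. Tbx21, the transcription factor T-bet, was at 5.47, 4.31 and 1.17 on OP9-DL1, against 0.668, 1.08 and 0 on OP9. In each, replicate 3 was the lowest of its stroma. Ren1, Spp1 and Wnt10a were the 3 genes that fell there beside Igj, Tnip3, Hmces, Pafah1b3 and Itln1.

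Several large differences did not pass the test with all libraries. Wnt10a, a secreted Wnt ligand, was at 6.15, 5.70 and 1.18 scaled TPM on OP9-DL1, against 38.3, 33.8 and 17.1 on OP9 (limma adjusted p = 0.0811). Spp1, osteopontin, was at 6.50, 12.9 and 3.89 on OP9-DL1, against 102, 62.1 and 32.5 on OP9 (limma adjusted p = 0.169). Saa3, an acute phase protein that stroma also makes, was at 0 in all 3 OP9-DL1 libraries, against 22.9, 20.1 and 3.62 on OP9 (limma adjusted p = 0.511). Ccl2, a chemokine, was at 2.95, 11.2 and 4.56 on OP9-DL1, against 74.7, 12.3 and 32.6 on OP9 (limma adjusted p = 0.565). Saa3 and Spp1 are members of the stroma marker list. Sums of that list were highest in OP9 replicates 1 and 2, at 345 and 207 TPM. These sums include Spp1 itself, at 113 and 70.6 TPM, and Saa3, at 25.4 and 22.9 TPM. They are therefore not independent of these genes. The part of stroma RNA in these 4 values was not tested.

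Among higher values, Ffar2, a short-chain fatty acid receptor, was at 12.3, 12.2 and 14.6 scaled TPM on OP9-DL1, against 2.15, 2.86 and 2.26 on OP9 (log2 fold change 2.04 ± 0.47, limma adjusted p = 0.118). Il1r2, the decoy receptor of interleukin 1, was at 57.0, 58.4 and 75.2 on OP9-DL1, against 16.6, 18.2 and 16.8 on OP9 (1.82 ± 0.43, limma adjusted p = 0.128). Batf3, a transcription factor of activated lymphocytes, was at 13.4, 14.6 and 22.5 on OP9-DL1, against 6.17, 5.39 and 5.60 on OP9 (1.37 ± 0.41, limma adjusted p = 0.547). These 3 genes had groups that did not overlap and did not pass the test over all genes. In each, replicate 3 was the highest OP9-DL1 library. From replicates 1 and 2, their log2 fold changes were 1.93, 1.67 and 1.14. With LPS at 44 h, Il1r2 and Batf3 were called higher, with effects of 2.57 and 2.12 (limma adjusted p = 0.0023 and 0.0099). Ffar2 was not called at 44 h.

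The Notch pathway itself showed no called gene. Of 16 listed Notch targets, 13 passed the filter on low values, and their median was 0.02. Hes1 was at 0.293, 2.64 and 23.6 scaled TPM on OP9-DL1, against 0.671, 0 and 6.05 on OP9, with the highest value of each stroma in replicate 3. Hes5 was at 9.76, 7.95 and 2.84 on OP9-DL1, against 10.5, 6.38 and 4.37 on OP9. Dtx1, a regulator of Notch signalling, was at 69.7, 58.9 and 25.5 on OP9-DL1, against 62.9, 70.04 and 24.8 on OP9. Nrarp was at 0.204, 0.710 and 0.498 on OP9-DL1, against 1.05, 0.640 and 0.379 on OP9. The groups overlapped in all 4 genes. Of the 13 tested, 3 (23.1%) had every OP9-DL1 library higher, beside 4.62% of all genes, and none had every library lower. These were Gpr183, and Notch3 and Hspa1b, which were below 1 in all 6 libraries. Hspa1b is a heat shock gene that the list used here counts as a Notch target.

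Gpr183, a migration receptor listed among Notch targets, was at 53.4, 50.6 and 55.9 scaled TPM on OP9-DL1, against 22.05, 25.4 and 25.2 on OP9. Its groups were far apart for their spread, and its log2 fold change was 1.11 ± 0.33 (limma adjusted p = 0.547). Notch2 was at 5.77, 6.22 and 506 on OP9-DL1, against 5.74, 6.196 and 203 on OP9, so replicate 3 alone set its high values on both stromata. Notch1 was at 4.09, 2.94 and 3.72 on OP9-DL1, against 3.87, 5.52 and 3.14 on OP9. Of 34 genes of the Notch machinery tested, none was called, and their median was 0.17.

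Marginal zone genes, which Notch2 is known to support, had no called member among 20 tested, with a median of 0.11. Cr2, the complement receptor CD21, was at 73.4, 45.7 and 40.6 scaled TPM on OP9-DL1, against 28.5, 43.4 and 17.3 on OP9, with overlapping groups. Cd1d1 was at 24.8, 20.6 and 13.1 on OP9-DL1, against 17.7, 19.3 and 13.1 on OP9. Fcer2a, the CD23 receptor, which is higher on follicular than on marginal zone cells, was at 156, 136 and 57.9 on OP9-DL1, against 35.2, 46.5 and 24.99 on OP9 (limma adjusted p = 0.422).

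Interferon response genes were the most one-sided list. Of 39 tested, none was called, 37 had a positive fold change and 16 had every OP9-DL1 library above every OP9 library, which is 41.0% of the list beside 4.62% of all genes. None had every OP9-DL1 library lower, where 4.23% of all genes did. Mx1, an antiviral GTPase, was at 8.39, 5.97 and 14.1 scaled TPM on OP9-DL1, against 2.57, 3.52 and 4.39 on OP9. Ifit3, whose promoter is printed above, was at 9.23, 11.8 and 10.2 on OP9-DL1, against 5.86, 5.54 and 2.11 on OP9. Both had a limma adjusted p of 0.99 or more. Mx2 and Ifit1 had log2 fold changes of 1.11 each. The list median was 0.55, and 0.53 from replicates 1 and 2. The list median was 0.21 with LPS at 44 h and -0.22 with anti-IgM at 68 h.

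**Figure D3:**
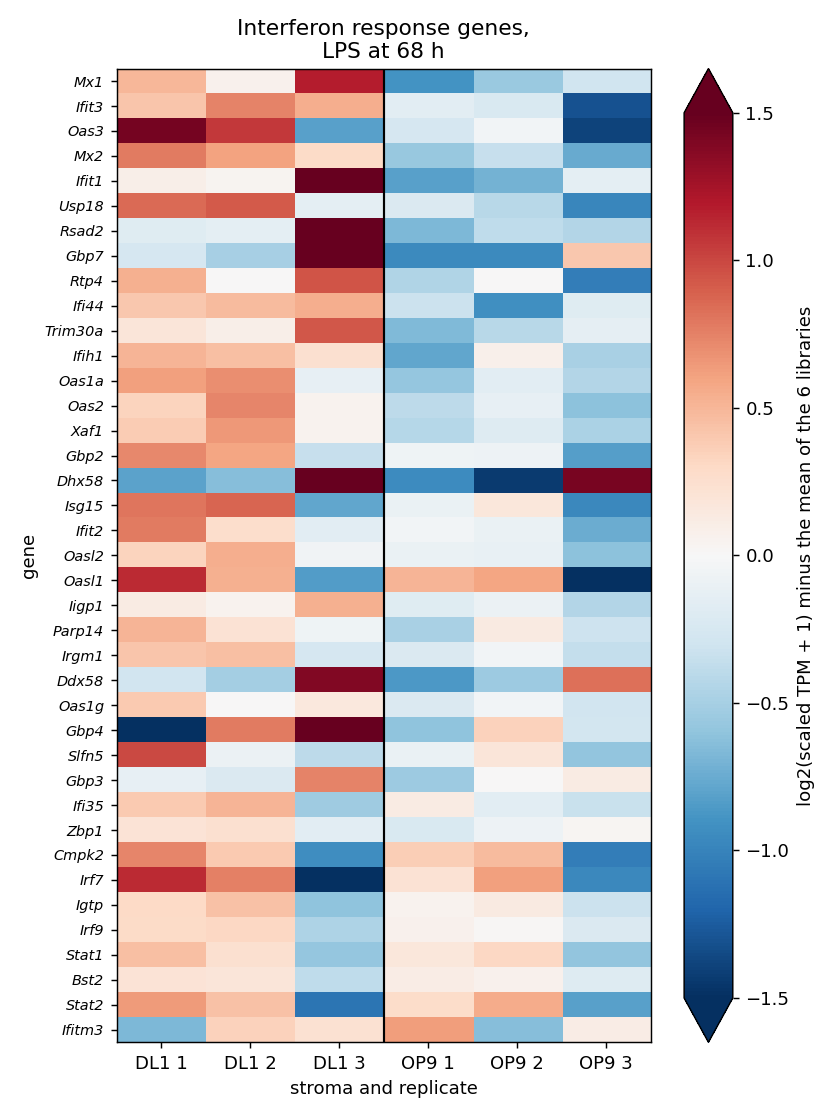
Interferon response genes (rows, ordered by fold change) in the 6 libraries with LPS at 68 h, OP9-DL1 left of OP9. Colour is log2(scaled TPM + 1) minus the mean of the 6 libraries, and the scale ends at 1.5 in both directions; replicate 3 of OP9-DL1 differs from replicates 1 and 2 in many rows.

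Proliferation lists lay on the other side. Of 30 mitosis genes tested, none was called, 28 had a negative fold change, and 10 had every OP9-DL1 library below every OP9 library, which is 33.3% of the list beside 4.23% of all genes. Plk1, a mitotic kinase, was at 108, 105 and 41.0 scaled TPM on OP9-DL1, against 164, 146 and 157 on OP9 (log2 fold change -0.996 ± 0.49, limma adjusted p = 1). Ccnb2, a mitotic cyclin, was at 185, 196 and 202 on OP9-DL1, against 296, 272 and 390 on OP9 (-0.70 ± 0.27, limma adjusted p = 1). Of 34 DNA replication genes, 30 were negative and 4 (11.8%) had every OP9-DL1 library lower. Among the 31 oxidative phosphorylation genes, 25 were negative and 4 (12.9%) had every OP9-DL1 library lower, with a median of -0.28.

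Ribosome biogenesis and inhibitory receptor genes had medians above that of all genes, of which 55.4% were positive and 4.62% had every OP9-DL1 library higher. Of 32 ribosome biogenesis genes, 24 (75.0%) were positive and 6 (18.8%) had every OP9-DL1 library higher, with a median of 0.20. Of 17 inhibitory receptors, 13 (76.5%) were positive and 5 (29.4%) had every OP9-DL1 library higher, with a median of 0.37. Btla, an inhibitory receptor of lymphocytes, was at 48.2, 43.4 and 52.0 scaled TPM on OP9-DL1, against 31.2, 29.7 and 26.1 on OP9 (0.70 ± 0.37, limma adjusted p = 1). No member of either list was called.

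**Figure D4:**
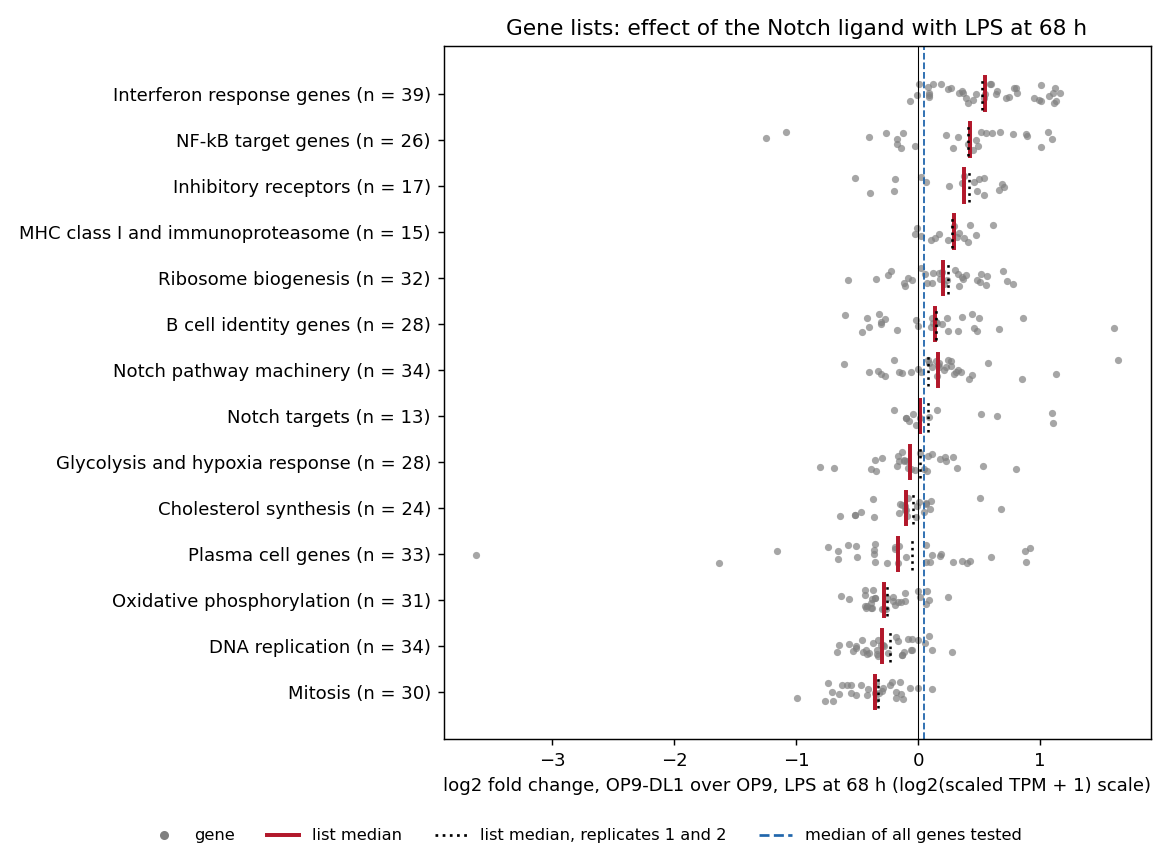
Log2 fold change of OP9-DL1 over OP9 with LPS at 68 h (horizontal axis, log2(scaled TPM + 1) scale) for the tested members of 14 gene lists. Points are genes, solid bars list medians, dotted bars list medians from replicates 1 and 2, and the dashed line the median of all genes; of the 14 lists shown, interferon genes lie furthest right and mitosis genes furthest left by median.

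Markers of other cell types were also measured. Of 15 T cell markers, 5 to 7 were at 0 in the OP9-DL1 libraries and 6 to 8 in the OP9 libraries. Trbc1 and Trbc2 were at 0 in all 6 libraries and Cd3e in 5, while Lck was at 15.7 to 60.8 TPM on OP9-DL1 and at 30.1 to 47.4 TPM on OP9. Cd3d was at 0.930 to 1.36 TPM on OP9-DL1 and at 0.188 to 0.892 TPM on OP9. Cd3g was at 0.415 to 0.89 TPM on OP9-DL1 and at 0 in the OP9 libraries. The myeloid list summed to 73.9 to 231 TPM on OP9-DL1 and to 49.4 to 116 TPM on OP9. Most of that sum was Flt3, at 205, 173 and 49.9 TPM on OP9-DL1 and at 72.4, 98.1 and 28.0 TPM on OP9. Cd68 was at 7.90 to 19.8 TPM on OP9-DL1 and at 7.60 to 9.57 TPM on OP9. Itgam, Mpeg1 and Zbtb46 lay between 2.27 and 8.1 TPM in every library, while Fcgr1, S100a9, Ly6g and Cd163 were at 0 in every library. The 10 NK cell markers summed to 1.51 to 4.43 TPM on OP9-DL1 and to 0.282 to 0.668 TPM on OP9, and Prf1 made most of it in the OP9-DL1 libraries. The part of these cell types in the results was not tested.

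The ligand's effect was then set beside that at the time before. With LPS at 44 h, Igj was at 21.5, 22.03 and 24.3 scaled TPM on OP9-DL1, against 2.89, 1.22 and 2.94 on OP9. Its effect at 44 h was thus 2.86 on the log2 scale, with the opposite sign to that at 68 h. At 20 h, Igj was at 115, 103 and 98.5 on OP9-DL1, against 32.6, 12.6 and 16.7 on OP9. All 3 of those OP9-DL1 libraries were over 5000 TPM of Actb (13973, 21888 and 12355), and the OP9 libraries were not. Stroma and high Actb therefore cannot be told apart with LPS at 20 h. The difference between the 68 h and 44 h effects was -6.49 (limma adjusted p = 1.5e-06), and it passed the test under every alternative that could be run for it. Of all genes tested, 2 (0.0128%) were called for that difference, both lower. The other was Il27, a cytokine subunit, chosen after its values were seen, with a 68 h effect of 0.07 and a 44 h effect of 2.55 (limma adjusted p of the difference 0.0195). Il27 was at most 0.179 scaled TPM in the 68 h libraries. With replicates 1 and 2 of the 68 h groups, or with the stromata paired within stimulus and time, Igj alone was called for the difference, and both genes were called without the high-Actb libraries.

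Set against anti-IgM at 68 h, 31 genes (0.199%) were called for the difference in effect, 9 higher (0.0576%) and 22 lower (0.141%) with LPS. Igj was again the largest, since with anti-IgM it was at 95.5, 77.8 and 111 scaled TPM on OP9-DL1, against 12.5, 4.40 and 13.0 on OP9. Rgcc had an effect of -1.51 with LPS and 1.1999 with anti-IgM (difference -2.71, limma adjusted p = 0.00293). Dynlt1a, a dynein light chain with near-identical copies, had -0.69 with LPS and 1.77 with anti-IgM (difference -2.46, limma adjusted p = 0.00125). Slfn8, a Schlafen family gene, had 0.92 with LPS and -1.503 with anti-IgM (difference 2.42, limma adjusted p = 0.0254). Focad, a focal adhesion protein, had 0.99 with LPS and -1.95 with anti-IgM (difference 2.94, limma adjusted p = 0.0254). With replicates 1 and 2 of the LPS groups, Slfn8 and Focad lost these calls (limma adjusted p = 0.0991 and 0.217), and with the stromata paired within stimulus and time they also did (0.0646 and 0.0658). Both kept them without the high-Actb libraries (0.00931 and 0.025).

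The medians of several lists were apart between these comparisons. Replicate 3 of OP9 with anti-IgM at 68 h had 29840 TPM of Actb, against 831 and 952 in replicates 1 and 2. The OP9-DL1 libraries with anti-IgM at 68 h were at 1443, 1208 and 1302 TPM. The anti-IgM medians below include that OP9 library and were not computed without it. Mitosis genes had a median of -0.35 with LPS and 0.74 with anti-IgM at 68 h, where 3 of 30 were called higher. Oxidative phosphorylation genes had a median of -0.28 with LPS and 0.82 with anti-IgM at 68 h, where 6 of 31 were called higher (1.11% of all genes were, and 0.621% were called lower). Glycolysis and hypoxia genes had a median of -0.07 with LPS at 68 h, with none of 28 called. The same list had a median of 1.01 with LPS at 44 h, with 5 called higher (0.141% of all genes were, and 0.0192% were called lower), and 0.79 with anti-IgM at 68 h, with 6 called higher. Cholesterol synthesis genes had a median of -0.10 with LPS at 68 h and 1.00 with anti-IgM. Whether a list differed between comparisons was tested gene by gene only: 1 glycolysis gene (Mif), 1 cholesterol gene (Fdps) and 1 mitosis gene (Ube2c) were called for the difference from anti-IgM.

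**Figure D5:**
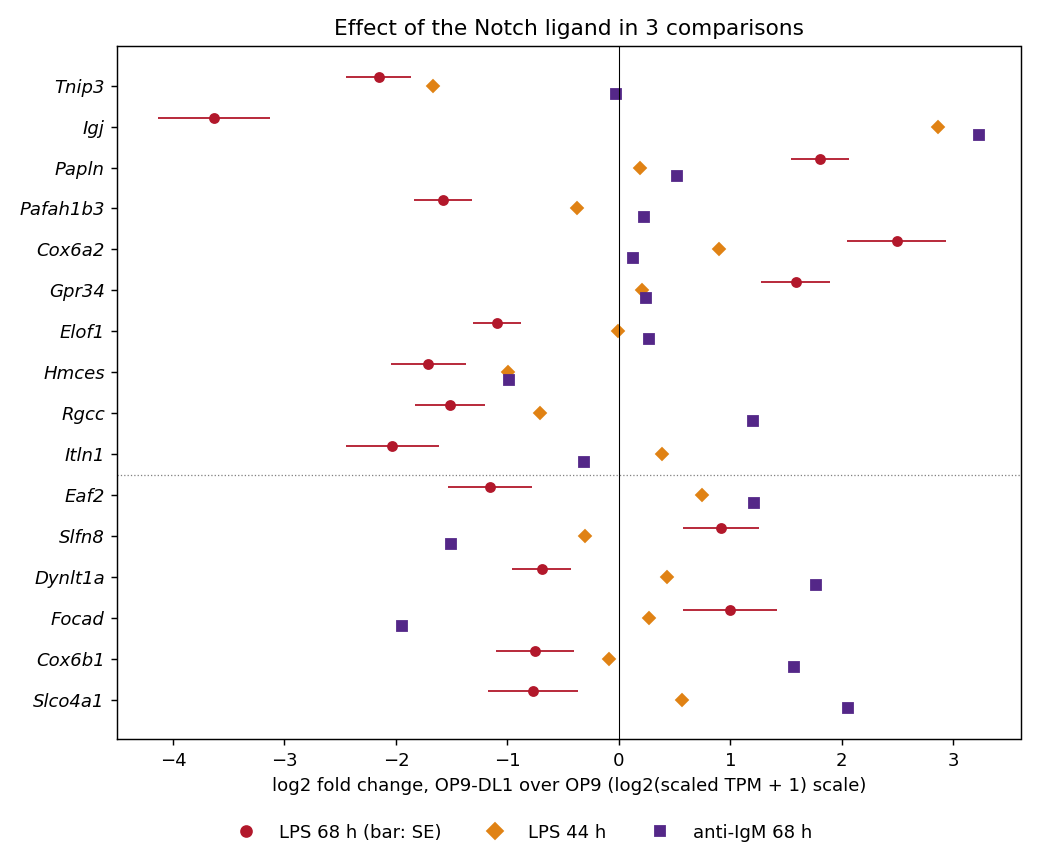
Log2 fold change of OP9-DL1 over OP9 (horizontal axis, log2(scaled TPM + 1) scale) with LPS at 68 h (circles, bars are SE), LPS at 44 h (diamonds) and anti-IgM at 68 h (squares). Genes above the dotted line were called with LPS at 68 h, and those below were named for a called difference between comparisons; Igj is negative with LPS at 68 h and positive in the other comparisons.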

How the data were processed

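The deposited values are TPM per gene symbol for 45 libraries and a log2 table of the same libraries. Per the submitters' processing notes, kallisto and limma were used with GRCm38 and mm10; versions and the strand setting are not given in the sources used here. The deposited log2 values follow log2 of estimated count plus 0.5 scaled to library size, from which estimated reads were solved (largest deviation 0.0809% of the implied total). These depths limit counting error only. The labels name a SMART-Seq HT kit in one place and a v4 kit in another.

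TPM were divided by median-ratio size factors (0.442 to 1.43). Genes with at least 1 TPM in at least 3 libraries were tested (15614 of 30317 symbols). log2(scaled TPM + 1) of all 45 libraries in 15 groups entered one limma 3.58.1 fit (R 4.3.3; trend, robust), and genes were called at a Benjamini-Hochberg adjusted p under 0.05. Group values are scaled TPM unless TPM is named. The main fit was tested on simulated data with independent noise of equal spread in all libraries for a given gene. That setting lacks the shared deviation of replicate 3, so the simulation cannot say how the fit handles it. Same-numbered replicates of the stromata deviated together (correlations 0.513, 0.517 and 0.774), though replicates 1 and 2 also did so crosswise (0.495 and 0.63), so the pairing is a hint from the data. Named genes were those called, the 10 largest differences each way whose groups did not overlap and whose higher group mean reached 10, up to 4 non-overlapping members of each of 37 lists, fixed pathway genes, and up to 6 genes each way called for a difference in effect; V, D and J segments and unnamed models were left out. The comparison and the lists were chosen with earlier results of these data known.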

Additional observations from a re-analysis of the deposited data

Results flagged for a closer look

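The effect of the ligand with LPS at 68 h differed from another comparison of stromata in the following genes, by limma's test of the difference itself (log2 scale, 68 h LPS effect minus the other). Against LPS at 44 h, Igj differed by -6.49. Against anti-IgM at 68 h, Igj differed by -6.86. In the same comparison the differences were -2.13 for Tnip3, -1.80 for Pafah1b3, -1.36 for Elof1 and -2.71 for Rgcc, which were also called with LPS alone. They were -2.37 for Eaf2, -2.46 for Dynlt1a, -2.32 for Cox6b1, -2.83 for Slco4a1, -1.84 for Fdps and -2.10 for Mif, which were not. They were 2.42 for Slfn8 and 2.94 for Focad. Igj, Rgcc and Dynlt1a kept their call against anti-IgM under every alternative run, while Eaf2 lost its call in 18 of 26, Cox6b1 in 14, Slfn8 and Slco4a1 in 11 each and Focad in 10.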

How the results depend on the processing

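The main comparison had 10 calls. It had 5 with TPM as deposited, 1 with the authors' log2 values, 5 with a pseudocount of 0.1, 21 with no filter and 3 with replicates 1 and 2. It had 23 without the high-Actb libraries and 0 with only the groups compared, with or without the replicate block (466 and 1249 genes at an unadjusted p under 0.05). The replicate block over all libraries left 10, all shared, and the block within stimulus and time, chosen after seeing the data, left 5. Array weights, whose estimate stopped before convergence, gave 961 calls, and 521 and 1882 for the differences from LPS at 44 h and anti-IgM. Leaving out 1 library gave 5 to 11 calls: 6 without OP9-DL1 replicate 1 and 5 without OP9 replicate 1 or 2. The 2 calls against LPS at 44 h became 1 with the authors' log2 values, immunoglobulin genes removed, pseudocount 0.1, a filter at 5 TPM, replicates 1 and 2 or the block within stimulus and time. They became 8 without high-Actb libraries, 9 with only the groups compared, 4 with the replicate block there, and 1 to 3 leaving out 1 library. The 31 calls against anti-IgM became 50 with TPM as deposited (20 higher, 30 lower), 7 with replicates 1 and 2, 102 without high-Actb libraries, 7 with the block within stimulus and time, and 5 to 55 leaving out 1 library (5 without OP9 LPS replicate 1 or OP9-DL1 anti-IgM replicate 1, 55 and 49 without OP9 anti-IgM replicate 2 or 3, and 18 or fewer without any other library of the groups compared except OP9-DL1 LPS replicate 2 and OP9 anti-IgM replicate 1). Quantile normalization gave 13 (2 higher, 11 lower) in the main comparison and 22 (3 higher, 19 lower) against anti-IgM. Signs turned in no called gene, but in genes not called: Actb to -0.21 (quantile), -0.40 (array weights) and -0.37 (replicates 1 and 2, or no high-Actb libraries), Pax5 to -0.0275 (authors' log2), Sdc1 to 0.17 and Hes5 to 0.0932 (replicates 1 and 2, or no high-Actb libraries). Leaving out 1 library turned 11 genes, with ranges of -1.06 to 0.0597 for Xbp1, -0.0699 to 2.06 for Hes1, -0.678 to 0.178 for Sdc1, -0.00393 to 0.431 for Cd1d1, -0.911 to 0.387 for Bach2, -0.279 to 0.019 for Prdm1, -0.305 to 0.0226 for Notch1, -1.62 to 2.07 for Notch2, -0.391 to 0.352 for Hes5, -2.17 to 1.995 for Actb and -0.482 to 0.412 for Dtx1. Igj lost its call only in the 2 fits of the groups compared. The authors' log2 values shifted the median of all genes to -0.09. The cause of these changes was not tested.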

Other observations

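Antigen presentation and cytoskeleton genes held no called member with LPS at 68 h. Of 15 genes of MHC class I and the immunoproteasome, 13 had a positive fold change, and the median was 0.29, beside 0.05 over all genes. Tapbp, which loads peptides onto MHC class I, was at 477, 398 and 396 scaled TPM on OP9-DL1, against 363, 352 and 217 on OP9 (limma adjusted p = 1). Of 22 actin and cytoskeleton genes, 18 had a negative fold change, and the median was -0.12. Vim, the intermediate filament vimentin, was at 44.4, 55.8 and 57.2 on OP9-DL1, against 94.2, 114 and 130 on OP9 (limma adjusted p = 1). Capg, an actin capping protein, was at 615, 711 and 666 on OP9-DL1, against 1022, 769 and 1059 on OP9 (limma adjusted p = 1). In these 3 genes the groups did not overlap. Of 13 MHC class II presentation genes, 10 had a positive fold change, with a median of 0.22 that ranged from 0.003 to 0.47 over the alternatives.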
